A study of Homo sapiens with 8 samples.

Results

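The 10 genes described here, TUBA1A, TUBA1B, TUBA1C, TUBA4A, TUBB, TUBB2A, TUBB2B, TUBB3, TUBB4B and TUBB6, encode alpha- and beta-tubulins, and they were taken by name from the 58302 genes of the count table. All 10 are listed there, and 9 of them passed the filter on low counts. RNA sequencing of the human colorectal cancer line DLD1 compared cells that carried lentiviral pCDH constructs of wild-type TRMT6 and TRMT61A (OE-WT, genotype label TRMT6/TRMT61A overexpression) with cells that had received the empty vector (CTRL, genotype label WT). Each group had 2 libraries from duplicate cultures. Both groups are stably transduced, the labels name neither a promoter nor a clone, and cells with the catalytically inactive enzyme were not analysed here. TRMT6 and TRMT61A form the methyltransferase that places 1-methyladenosine on tRNA, and the comparison asks which transcripts differ when more of it is made.

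Alpha- and beta-tubulin form the dimer from which microtubules, and with them the mitotic spindle and the tracks of intracellular transport, are built. Each is encoded by several genes, the isotypes, whose proteins differ mainly in a short acidic tail at the carboxyl end that enzymes decorate with glutamate chains and that motors and other microtubule-associated proteins touch. The mRNA of most tubulins is also under feedback control: when free dimers are in excess, the protein TTC5 recognizes the first residues of a tubulin as it leaves the ribosome and the mRNA is degraded. TUBB3 and TUBB2B are best known from neurons, and TUBA1B, TUBB and TUBB4B are expressed broadly, in dividing cells among others.

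The ends of the beta-tubulin coding sequences are shown because they are where the isotypes differ most. Another reason is that the study followed GAG and GAC, glutamate and aspartate codons read by some of the tRNAs it found more methylated. It also built reporters with an alanine and a leucine codon, which are not marked here. Each line holds the last 20 codons before the stop codon of the canonical GENCODE transcript, read from the GRCh38 genome, and capitals mark in-frame GAG and GAC codons.
TUBB: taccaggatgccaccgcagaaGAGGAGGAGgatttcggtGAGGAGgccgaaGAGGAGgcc
TUBB2A: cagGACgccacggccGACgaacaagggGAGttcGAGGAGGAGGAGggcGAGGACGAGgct
TUBB2B: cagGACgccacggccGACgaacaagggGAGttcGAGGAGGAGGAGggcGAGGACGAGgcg
TUBB3: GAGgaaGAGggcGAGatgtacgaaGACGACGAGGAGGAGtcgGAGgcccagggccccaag
TUBB4B: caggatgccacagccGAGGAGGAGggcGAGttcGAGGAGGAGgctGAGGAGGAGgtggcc
TUBB6: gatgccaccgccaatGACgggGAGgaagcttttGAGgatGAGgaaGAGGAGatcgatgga

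Of the 20 tail codons, 11 encoded an acidic residue in each of the 6 beta-tubulins. TUBB4B wrote 10 of these 11 as GAG and 0 as GAC, whereas TUBB6 had 5 GAG and 1 GAC. TUBB2A and TUBB2B each had 7 GAG and 3 GAC. Over the whole coding sequence, GAG and GAC together made up 8.43% of the codons of TUBA1B, 8.65% in TUBA1A, 8.69% in TUBA1C, 9.01% in TUBB and 10.04% in TUBA4A. TUBB4B had 11.24%, TUBB6 11.43%, TUBB2B 11.46%, TUBB3 11.78% and TUBB2A 11.91%. The median over 19448 coding genes was 6.21%, with quartiles of 4.41% and 8.30%, so all 10 tubulins lay above the upper quartile. In the study, the frequency of these codons across transcripts showed no simple linear relation to the change in translation efficiency. The study also reported that luciferase reporters with repeated GAG or GAC codons were more active in OE-WT cells. In those cells, wild-type ARG2 gave more protein than ARG2 with these codons replaced by synonymous ones. The study concluded that the effect is selective for some genes.

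The other end, which the feedback control reads, is shown by the first 12 coding bases of TUBA4A, TUBA1B and TUBB, the members that rose in OE-WT cells, and of TUBB4B.
TUBA1B: atgcgtgagtgc
TUBA4A: atgcgtgaatgc
TUBB: atgagggaaatc
TUBB4B: atgagggaaatc

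TUBA1A and TUBA1C began with the same 12 bases as TUBA1B. TUBA4A differed from them in 1 codon, gaa in place of gag. TUBB and TUBB4B were alike in these bases.

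In GRCh38, TUBA1B (ENSG00000123416, chr12:49127782-49131397, minus strand), TUBA1A (ENSG00000167552, chr12:49184686-49189080, minus strand) and TUBA1C (ENSG00000167553, chr12:49188736-49274600, plus strand) lie in 1 cluster, and TUBA4A (ENSG00000127824) lies apart on the minus strand of chromosome 2 at 219249710 to 219277902. TUBB (ENSG00000196230) is on the plus strand of chromosome 6 at 30717435 to 30725538. TUBB2A (ENSG00000137267, 3153497 to 3157544) and TUBB2B (ENSG00000137285, 3223324 to 3231730) lie near each other on the minus strand of the same chromosome. TUBB3 (ENSG00000258947) is at chr16:89921392-89938761, TUBB4B (ENSG00000188229) at chr9:137241287-137243707 and TUBB6 (ENSG00000176014) at chr18:12307669-12344320, all on the plus strand. Each canonical transcript has 4 exons.

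Several isotypes are near-copies of each other, which limits how exactly reads can be assigned to them. TUBA1A and TUBA1B shared 97.2% of their coding bases and differed in 2 residues of the protein, whereas TUBA4A shared 85.7% of its coding bases with TUBA1B. Each exon of the canonical transcripts was cut into all windows of 75 bases, so that no window crossed a splice junction. The longer paired reads given in the study's methods were not modelled. Of the windows of TUBA4A, 96.4% occurred once in the genome without its alternative haplotypes. For TUBB4B this share was 93.4%, for TUBB3 92.1%, for TUBB 91.8%, for TUBA1C 81.5% and for TUBA1A 63.9%. The share was 46.0% for TUBA1B, 40.8% for TUBB2B and 32.0% for TUBB2A, and all windows of TUBB6 occurred once. The values of TUBA1A, TUBA1B, TUBB2A and TUBB2B are therefore uncertain, since reads they share with a paralog or a processed pseudogene may have been split or set aside. The level of TUBB3 is uncertain for another reason, a readthrough gene on the same strand that is described below. Tubulin pseudogenes listed in the table held 68 and 69 counts in OE-WT, against 65 and 75 in CTRL, and TUBAP2 held the most, with 110 over the 4 libraries.

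The libraries held between 10327498 and 12379671 counts on genes, and 3 counts, the limit that a count of 0 allows for counting error alone, were 0.242 to 0.290 counts scaled per 1000000 (CPM). TRMT6 was 3.62-fold higher in the OE-WT libraries (196 ± 21.1 against 54.0 ± 1.99 CPM, SD, n = 2 each) and TRMT61A 2.31-fold higher (134 ± 5.02 against 57.9 ± 1.48 CPM), as the labels say. All 8 epithelial markers searched (EPCAM, KRT8, KRT18, KRT20, CDH1, VIL1, CDX2 and CEACAM5) were detected in every library, and 5 of them changed at an adjusted p below 0.05. KRT20 and CEACAM5, which mark differentiated colonic cells, had log2 fold changes of -1.52 ± 0.13 and -1.33 ± 0.39 (SE, edgeR adjusted p = 7.03e-08 and 0.017). The value of CEACAM5 is thus the less precise. CDH1 fell by 0.29, and KRT18 and KRT8 rose by 0.30 and 0.25. The part of this in the tubulin values was not tested. Of 8 neuronal markers, NEFL, STMN2 and GAP43 were at 0 in all 4 libraries and only MAP2 was tested, with a summed level of 3.12 to 4.32 CPM in OE-WT and 3.90 to 4.66 CPM in CTRL. The 8 fibroblast and leukocyte markers summed to 3.24 to 4.23 CPM in OE-WT and to 3.0 to 3.89 CPM in CTRL, with COL3A1, DCN and CD3E at 0. In bulk RNA, fewer cells of a type and less RNA per cell cannot be told apart.

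Tubulin mRNA was abundant in these cells and came from a few isotypes. In CTRL cells TUBA1B stood at 1781 and 1760 CPM, TUBB at 1413 and 1392, TUBB4B at 996 and 979 and TUBA1C at 739 in both libraries. By mean CPM over the 4 libraries TUBA1B ranked 36, TUBB 50, TUBB4B 83 and TUBA1C 124 among all genes of the table, while TUBA4A ranked 998 and TUBB6 1170. TUBA1A and TUBB2A were present at a low level, between 10.2 and 20.8 CPM, and TUBB2B and TUBB3 at 0.544 to 1.57 CPM, which is 7 to 18 counts per library. TUBB3 did not pass the filter and was not tested.

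**Figure D1:**
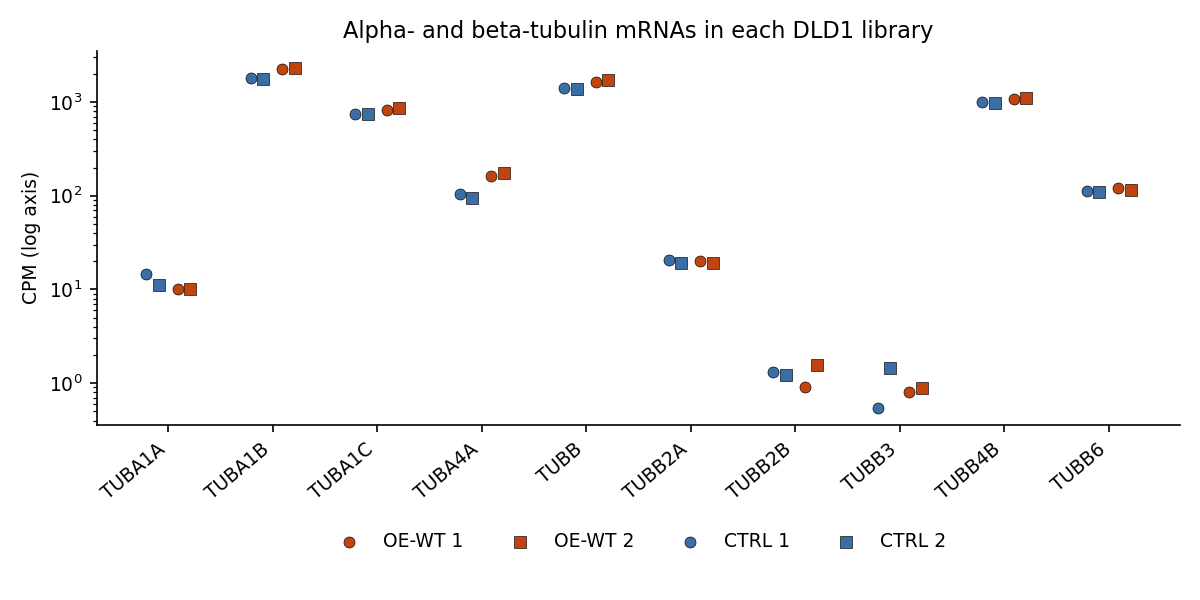
CPM (log axis) of each tubulin gene in the 2 OE-WT libraries (orange) and the 2 CTRL libraries (blue), with circles for replicate 1 and squares for replicate 2. The isotypes span from 0.544 CPM (TUBB3 in a CTRL library) to 2318 CPM (TUBA1B in an OE-WT library), and TUBA4A shows the clearest gap, 160 and 175 CPM against 104 and 95.6.

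Levels of different genes were compared per length, as CPM per kilobase of all exons of the gene (RPKM). Among alpha-tubulins in CTRL cells, TUBA1B had 495 ± 4.08 RPKM, TUBA1C 166 ± 0.0265, TUBA4A 27.0 ± 1.68 and TUBA1A 3.37 ± 0.587 (SD, n = 2), an order in which no neighbours overlapped in any library. Among beta-tubulins in CTRL cells, TUBB4B had 485 ± 6.02 RPKM, TUBB 345 ± 3.49, TUBB6 28.2 ± 0.448, TUBB2A 6.89 ± 0.388, TUBB2B 0.305 ± 0.0176 and TUBB3 0.135 ± 0.0874. The order was the same in OE-WT cells, where TUBB4B reached 535 ± 10.6 and TUBB 407 ± 12.9 RPKM. Per length of the longest transcript the gap between TUBB4B and TUBB was narrower, at 485 ± 6.02 against 411 ± 4.16 RPKM in CTRL and 536 ± 10.6 against 486 ± 15.4 in OE-WT, and TUBB4B was still the higher in each library. TUBB2B was also above TUBB3 in each library on both lengths, but their levels rest on 7 to 18 counts per library. Reads of TUBB3 may also have been set aside because of its readthrough gene, so this order is uncertain.

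In OE-WT cells 3 of the 9 tested tubulins rose at an adjusted p below 0.05 (edgeR's quasi-likelihood test, Benjamini-Hochberg adjustment over 14133 genes) and 0 fell. TUBA4A rose the most, followed by TUBA1B and TUBB. Among all genes tested, 9.44% rose and 11.6% fell at that threshold, 21.1% in either direction. None of the 9 tubulins passed the thresholds of the study, an unadjusted p below 0.05 with an absolute log2 fold change above 1, which 3.15% of all genes passed. 6 of the 9 had an unadjusted p below 0.05 in edgeR, as did 33.8% of all genes tested. In 6 of the 9 both OE-WT libraries lay above both CTRL libraries, as in 29.9% of all genes tested, and in 1 of the 9 both lay below, as in 30.2%. The median log2 fold change of the 9 was 0.14, and that of all genes tested was 0.01.

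TUBA4A, an alpha-tubulin known from platelets, muscle and neurons, had 160 and 175 CPM in OE-WT, against 104 and 95.6 CPM in CTRL. Both OE-WT libraries were higher than both CTRL libraries by a margin wider than the gap within either group. The level was 1.68-fold higher in OE-WT, a log2 fold change of 0.74 ± 0.07 (SE, edgeR adjusted p = 2.11e-07), and 97.6% of the genes tested had a lower log2 fold change. Its log2 fold change stayed between 0.65 and 0.84, and its adjusted p at 7.85e-06 or below, over the 12 alternatives run, each library left out in turn included. STK16, a kinase gene on the opposite strand, overlaps 628 bases or 17% of the TUBA4A exons, and had 24.9 and 27.6 CPM in OE-WT and 31.7 and 29.4 CPM in CTRL, a log2 fold change of -0.22 (adjusted p = 0.13). STK16 thus lay on the other side of 0 from TUBA4A and was not called.

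Genes other than tubulins were searched for the pattern most like that of TUBA4A over the 4 libraries. Among 5595 genes with a mean of at least 20 CPM, the smallest root mean square differences of centred log2 CPM were those of BCYRN1 (0.0226), PCCA (0.0523) and ENSG00000257553 (0.0539). BCYRN1, a short noncoding RNA that resembles Alu repeats and whose counts may hold reads from related copies, had 427 and 459 CPM in OE-WT and 267 and 247 CPM in CTRL. PCCA, a subunit of the mitochondrial propionyl-CoA carboxylase, had 38.4 and 38.9 CPM in OE-WT and 25.1 and 23.2 CPM in CTRL. With 4 libraries in 2 groups, this likeness mostly restates that the 3 genes are higher in OE-WT by a similar amount.

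TUBA1B, the main alpha-tubulin of these cells, had 2223 and 2318 CPM in OE-WT, against 1781 and 1760 CPM in CTRL. The groups did not overlap, and the level was 1.28-fold higher in OE-WT, with a log2 fold change of 0.36 ± 0.07 (SE, edgeR adjusted p = 0.00068). TUBB, the general beta-tubulin, had 1621 and 1695 CPM in OE-WT and 1413 and 1392 CPM in CTRL. That is 1.18-fold higher, with a log2 fold change of 0.24 ± 0.07 and an adjusted p of 0.0129. The call of TUBB was lost under 3 alternatives. Without the second OE-WT library its log2 fold change was 0.20 (adjusted p = 0.142), with library size only it was 0.15 (adjusted p = 0.269), and with a replicate block it was 0.24 (adjusted p = 0.0591). The call of TUBA1B held under all 13 alternatives run, with a log2 fold change between 0.27 and 0.42. These include the sum with its antisense partner, described below, which was bound to lie near the value of TUBA1B itself.

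TUBA1C, the second alpha-tubulin by level, had 816 and 860 CPM in OE-WT and 739 in both CTRL libraries. The groups did not overlap, but its log2 fold change of 0.18 ± 0.06 missed the threshold at an adjusted p of 0.0504, and it passed with edgeR's likelihood ratio test (adjusted p = 0.0346). TUBB4B, the other main beta-tubulin, had 1075 and 1105 CPM in OE-WT and 996 and 979 CPM in CTRL, a log2 fold change of 0.14 ± 0.07 (adjusted p = 0.127). TUBB6 had 120 and 114 CPM in OE-WT and 112 and 110 CPM in CTRL, a log2 fold change of 0.08 ± 0.07 (adjusted p = 0.444). For TUBB4B and TUBB6 both OE-WT libraries again lay above both CTRL libraries, by margins that the test across genes did not tell from the spread. AFG3L2, on the opposite strand, overlaps 837 bases or 21.2% of the TUBB6 exons and had a log2 fold change of 0.03 ± 0.08. When a trend with GC content was removed from each library, TUBB4B and TUBB6 were called, with log2 fold changes of 0.27 (adjusted p = 0.0036) and 0.23 (adjusted p = 0.0215).

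The low isotypes were TUBA1A, TUBB2A, TUBB2B and TUBB3. TUBA1A, an alpha-tubulin best known from developing neurons, had 10.2 CPM in both OE-WT libraries against 14.5 and 11.3 CPM in CTRL, from 101 to 186 counts. It was the 1 tested member with both OE-WT libraries below both CTRL libraries, but its log2 fold change of -0.34 ± 0.16 did not pass (adjusted p = 0.138). The first CTRL library set much of that value, since the log2 fold change was -0.15 without it and -0.50 without the second CTRL library (adjusted p = 0.722 and 0.0438). TUBB2A had 19.9 and 19.3 CPM in OE-WT and 20.8 and 19.2 CPM in CTRL, and its log2 fold change was -0.03 ± 0.12. TUBB2B had 0.907 and 1.57 CPM in OE-WT and 1.32 and 1.22 CPM in CTRL, with a log2 fold change of -0.03 ± 0.40, an error too wide at 9 to 17 counts to detect a change of the size seen in TUBB. TUBB3 had 8 and 9 counts in OE-WT, against 7 and 18 in CTRL. The groups overlapped for TUBB2A, TUBB2B and TUBB3. A readthrough gene on the same strand, ENSG00000198211, shares 95.8% of the coding bases of TUBB3 and was listed at 0 in all 4 libraries. Reads in the shared bases may have been set aside as ambiguous, so the TUBB3 counts may be too low, which was not tested.

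**Figure D2:**
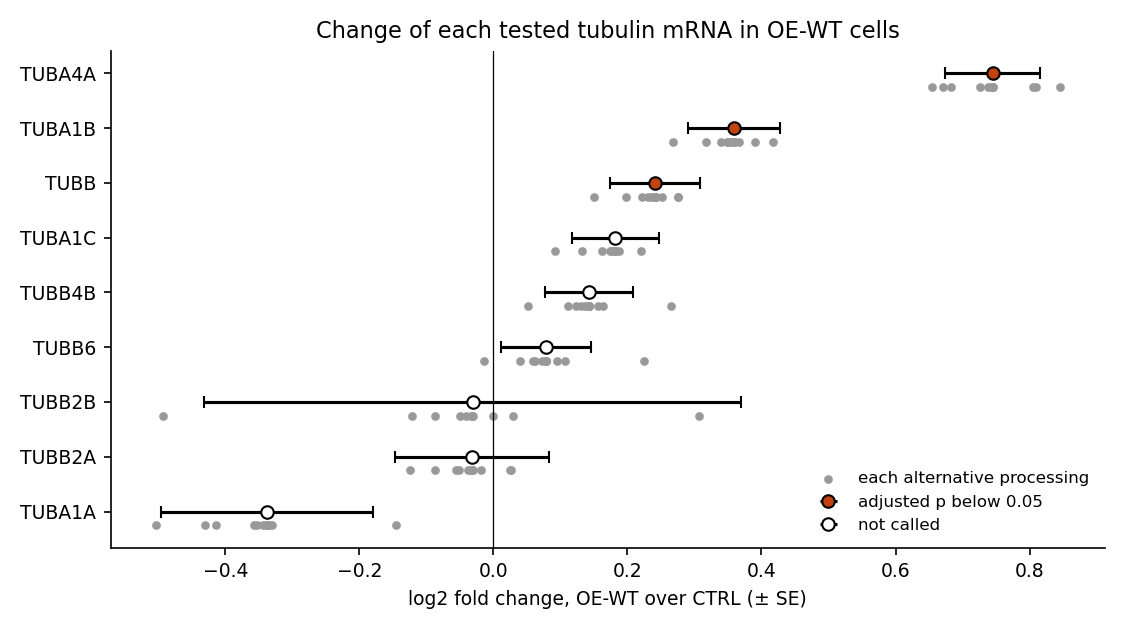
Log2 fold change, OE-WT over CTRL, with its standard error for the 9 tested tubulins (filled where the adjusted p was below 0.05), and in grey the value under each alternative processing. TUBA4A at 0.74, TUBA1B at 0.36 and TUBB at 0.24 were called, and the grey points of TUBB2A, TUBB2B and TUBB6 fall on both sides of 0.

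Summed over the family, alpha-tubulin members stood at 3210 and 3363 CPM in OE-WT, against 2639 and 2606 CPM in CTRL, a ratio of means of 1.25. Beta-tubulin members stood at 2838 and 2936 CPM in OE-WT and at 2544 and 2503 CPM in CTRL, a ratio of 1.14. Neither pair of groups overlapped, and the exact two-sided permutation test over the 4 libraries gave p = 0.333 for each, the smallest value that 2 against 2 allows. Of all counts, the 10 members took 0.574% and 0.621% in OE-WT, against 0.539% and 0.522% in CTRL. The ratio of summed alpha to summed beta RPKM was 0.883 and 0.896 in OE-WT against 0.798 and 0.801 in CTRL, again without overlap (exact permutation p = 0.333). It was taken per length of all exons only, and its level depends on that choice. Per longest transcript and per all exons, mean RPKM in CTRL were 554 and 495 for TUBA1B and 262 and 166 for TUBA1C. They were 411 and 345 for TUBB and 485 on both lengths for TUBB4B. The ratio does not settle whether alpha or beta mRNA was the more abundant.

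The make-up of each family changed by a few percentage points. TUBA4A supplied 5.20% ± 0.143 (SD, n = 2) of summed alpha-tubulin RPKM in OE-WT and 3.91% ± 0.207 in CTRL. TUBA1C supplied 21.6% ± 0.0981 in OE-WT and 24% ± 0.223 in CTRL, and TUBA1B 72.9% ± 0.232 against 71.6% ± 0.0641. The share of TUBA1C thus fell by 2.39 percentage points, while TUBA4A and TUBA1B gained 1.29 and 1.28. Among beta-tubulins, TUBB gained 1.74 points, from 39.8% ± 0.0699 to 41.6% ± 0.374, and TUBB4B went from 56.1% ± 0.0300 to 54.6% ± 0.165. TUBB6 supplied 3.04% in OE-WT and 3.26% in CTRL, and TUBB2A 0.689% and 0.797%. The groups did not overlap for any of these 7 shares or for that of TUBA1A, but did for TUBB2B and TUBB3. Shares within a family are not independent, since a gain of any isotype lowers the rest. In CPM, both OE-WT libraries lay above both CTRL libraries in 29.9% of all genes tested and below in 30.2%. The exact permutation test over 2 against 2 libraries cannot go below p = 0.333 for any share. Per length of the longest transcript the shares themselves differed, for example 30.4% for TUBA1C and 64.4% for TUBA1B in CTRL, and the directions of these differences were the same.

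**Figure D3:**
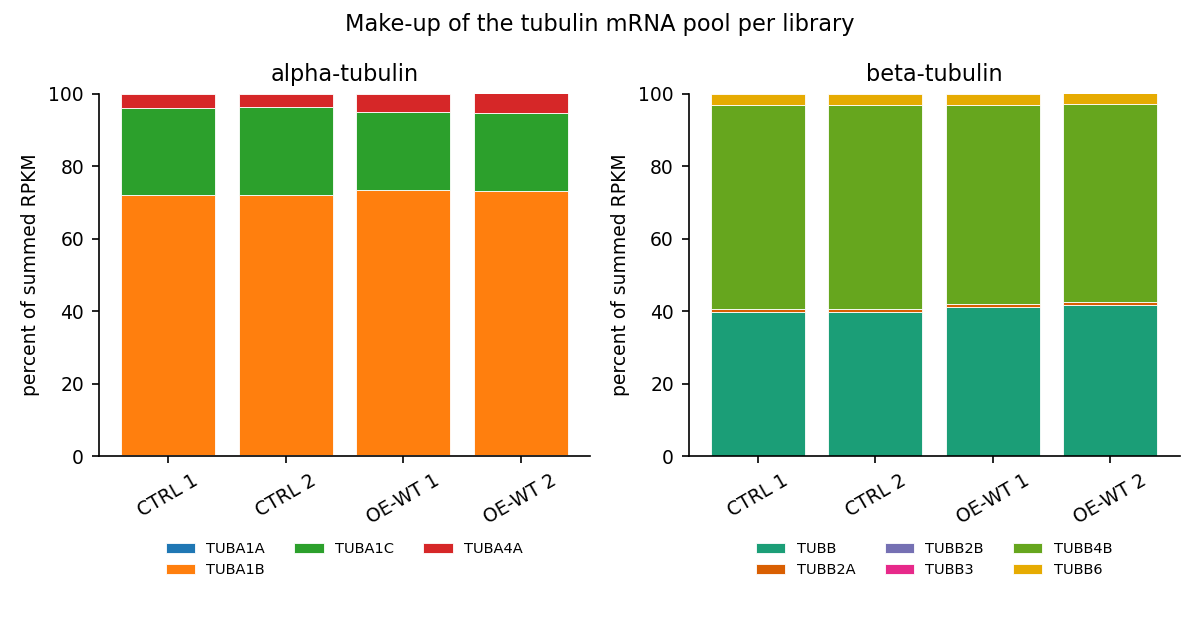
Share of each isotype in the summed RPKM of its family (percent, y axis) in the 2 CTRL and the 2 OE-WT libraries. TUBA1B with TUBA1C and TUBB4B with TUBB fill most of each bar, and TUBA4A takes 5.20% of the alpha-tubulin bar in OE-WT against 3.91% in CTRL, while TUBA1A, TUBB2B and TUBB3 are too small to see.

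3 of the abundant members have a noncoding gene on the opposite strand whose exons overlap theirs and whose counts were high. TUBA1B-AS1 (ENSG00000258017) covers 1571 bases or 44% of the TUBA1B exons and had 17169 and 18218 counts in OE-WT, and CTRL had 17956 and 17209. ENSG00000258232 lies within TUBA1C over 97.9% of its exons and had 4213 to 4940 counts, and ENSG00000272540 overlaps TUBB over 69.6% of its exons and had 6277 to 7303 counts. Their log2 fold changes of 0.33, 0.16 and 0.24 were close to those of TUBA1B, TUBA1C and TUBB (0.36, 0.18 and 0.24). The strand setting of the counting is not given in the sources used here, so reads of a member and of its antisense partner cannot be told apart. Over the whole table, 180 noncoding genes with at least 95% of their exonic bases within exons of an opposite-strand coding gene of at least 1000 counts had a median of 1.81 times the counts per base of that gene, with quartiles of 0.760 and 2.74. The same ratio was 0.605 for TUBA1B-AS1 against TUBA1B. An alternative chosen after seeing the data added the partner's counts to the member. The log2 fold change was then 0.35 for TUBA1B (edgeR adjusted p = 0.0013), 0.17 for TUBA1C (0.066) and 0.24 for TUBB (0.0149). Since member and partner changed by similar amounts, this sum had to lie near the member's own value. It does not test how reads were assigned.

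The genes that fold, nucleate, modify and bind tubulin were described by 5 lists of 72 genes in the table. Of these, 59 were tested, 7 rose and 3 fell at an adjusted p below 0.05 (16.9%, against 21.1% of all genes tested), and 0 passed the thresholds of the study. Their median log2 fold change was -0.01. With DESeq2's Wald test 2 of the 10 were called, EML4 and MAPRE2, and 9 of the 10 kept an unadjusted p below 0.05. Over all genes DESeq2 also called fewer, 1377 against 2976. Fewer related genes were called without the first OE-WT or the first CTRL library, and the same held for all genes. Most of these calls thus depend on the tool or on 1 library, in settings where calls fell over all genes too.

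Of the 10 other tubulin genes only TUBD1 and TUBE1, the delta- and epsilon-tubulins of centrioles, were tested, at 14 to 31 and 47 to 87 counts, and neither was called. Their CPM overlapped between the groups. Of the 9 genes of tubulin folding and feedback control that were tested, 0 were called by edgeR or by DESeq2. Of all 14133 genes tested, edgeR called 2976 (21.1%) and DESeq2 called 1377. An unadjusted p below 0.05 in edgeR was found for 1 of the 9, against 33.8% of all genes tested. TBCA and TBCB, the most abundant of these cofactors that hand tubulin to the dimer, had log2 fold changes of -0.08 ± 0.07 and -0.01 ± 0.07. TTC5, the reader of nascent tubulin, had -0.17 ± 0.16 (adjusted p = 0.497).

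In the gamma-tubulin ring complex, which nucleates microtubules, 1 of 11 tested genes rose and 1 fell (18.2%, against 21.1% of all genes tested). TUBGCP4, a structural subunit, rose from 29.9 and 31 CPM in CTRL to 37.2 and 37 CPM in OE-WT (log2 fold change 0.28, edgeR adjusted p = 0.029). MZT2B, a small subunit with the near-copy MZT2A, fell from 82.6 and 79.1 to 69.4 CPM in both libraries (log2 fold change -0.22, adjusted p = 0.0312). TUBGCP2 had 0.11 ± 0.07 and TUBG1, gamma-tubulin itself, 0.03 ± 0.09.

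Among 16 tested enzymes that modify tubulin, 2 rose and 0 fell at an adjusted p below 0.05 in edgeR (12.5%, against 21.1% of all genes tested). DESeq2 called 0 of the 16, giving no adjusted p for 4 of them. Of all 14133 genes tested, DESeq2 called 1377 and gave no adjusted p for 2740. TPGS2, a subunit of a tubulin polyglutamylase complex, rose from 72.8 and 69.4 CPM in CTRL to 85.6 and 88.7 CPM in OE-WT (log2 fold change 0.29, adjusted p = 0.00501). TTLL5, a polyglutamylase, rose from 6.22 and 6.25 to 9.97 and 8.65 CPM (log2 fold change 0.58, adjusted p = 0.0219). The most abundant members, TTLL12 and AGBL5, a carboxypeptidase that trims glutamates, had 0.07 ± 0.07 and -0.04 ± 0.07.

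Of 21 tested microtubule-binding proteins, 4 rose and 2 fell at an adjusted p below 0.05 (28.6%, against 21.1% of all genes tested). MAPRE2, an EB protein that tracks growing plus ends, rose from 19.4 and 19.8 CPM in CTRL to 34.9 and 33.4 CPM in OE-WT, a 1.74-fold difference and a log2 fold change of 0.80 ± 0.10 (adjusted p = 6.89e-06). Its relative MAPRE1 rose from 98.4 and 102 to 123 and 119 CPM (log2 fold change 0.27, adjusted p = 0.00698). MAPRE3, the remaining EB protein, fell from 19.0 and 17.1 to 11.6 and 14.3 CPM (log2 fold change -0.48, adjusted p = 0.015). The 3 EB genes thus included calls in both directions. EML4, a microtubule-stabilizing protein, rose from 11.8 and 13.2 to 21.2 and 16.1 CPM (log2 fold change 0.57, adjusted p = 0.00691). CLASP1, which stabilizes plus ends, and CAMSAP3, which binds minus ends, complete the 6 calls and were named after their values were seen, with log2 fold changes of 0.52 and -0.29 (adjusted p = 0.0156 and 0.0489). The most abundant members, STMN1, which holds free tubulin dimers, and MAP4, had 272 ± 1.66 against 258 ± 8.72 CPM and 180 ± 14.0 against 166 ± 5.77 CPM, and neither was called.

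**Figure D4:**
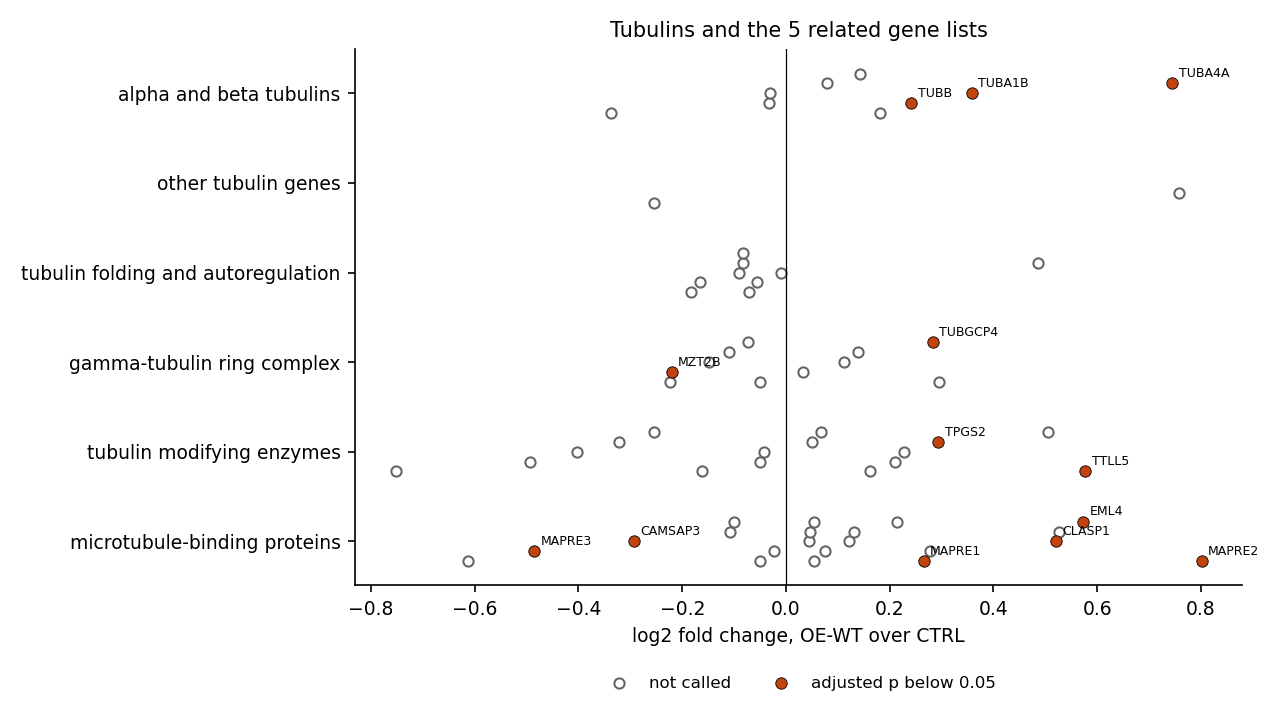
Log2 fold change, OE-WT over CTRL, of each tested gene of the tubulins and of the 5 related lists, one point per gene, filled and named where the adjusted p was below 0.05; height within a row only separates points. The 9 tubulins have 3 called genes, all above 0, and the folding and feedback list has none, while 21.1% of all genes tested were called.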

How the data were processed

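RNA sequencing libraries of 2 OE-WT and 2 CTRL cultures were analysed. The labels list 2 lanes per library, and the table has 1 column per library. The authors aligned reads to GRCh38 and deposited raw read counts per gene. The study's methods name Cutadapt, HISAT2 and HTSeq after rRNA removal with 3 replicates, whereas the labels give 2 replicates, poly(A) selection with a stranded kit and lysis with cycloheximide, and the submitters' processing notes list HISAT2 2.2.1, featureCounts 2.0.0 and DESeq2 1.34.0. Strand setting and annotation release of the counting are not given in the sources used here.

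GENCODE release 44 gave symbols for 57532 of 58302 identifiers. edgeR 4.0.16 (R 4.3.3) was run with its filter by group (minimum count 10), TMM scaling and the quasi-likelihood test over 14133 genes, with SEs from the F statistic. A simulation of this comparison over 14133 genes changed 200 genes by log2 fold changes of 1 to 2. Of these, 88% were recovered, and 8.33% of calls were unchanged genes. All tested tubulins changed by less than that, and smaller changes were not simulated, so recovery at their size is not known. CPM use TMM-scaled library sizes. P-values of edgeR rest on 2 libraries per group, with the spread of each gene drawn towards a trend estimated over all genes tested. Replicates differed by more than sampling noise (chi-square per gene 4.94 and 4.42), with Pearson's r of log2 CPM across genes, which are not replicates, of 0.990 and 0.992 within groups and 0.977 to 0.983 between them.

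Members and gene lists were chosen with earlier results of these data known. The genes named are all members, TRMT6, TRMT61A, the cell type markers, up to 4 called genes of lowest p and the 2 highest genes of each related list, and the 3 genes most like the member of lowest p. CLASP1, CAMSAP3, TTC5, TUBG1, TUBAP2 and the overlapping genes were added after their values were seen. TBCE was not matched. Alternatives were RLE, library size only, DESeq2 1.42.0, the likelihood ratio test, other filters, a replicate block, leaving out each library, a GC trend (lowess span 0.3) removed, longest transcripts for length, and added antisense counts. Figures used matplotlib 3.10.9. Ribosome profiling was not analysed here, and some sequences are not reported here.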

Additional observations from a re-analysis of the deposited data

How the results depend on the processing

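The calls of TUBA4A and TUBA1B held under every alternative run, and 0 tubulins passed the study's thresholds under any. The number of tubulins called was 3 as reported and 6 with a GC trend removed, where TUBA1C, TUBB4B and TUBB6 joined; it was 2 to 4 when 1 library was omitted. Over all genes the number called was nearly the same, 2990 with a GC trend removed against 2976 as reported. Deviations of same-numbered libraries from their group means had a correlation of -0.068 across genes. This value cannot show whether same-numbered cultures were handled together. With the replicate block 2 tubulins were called, TUBB at an adjusted p of 0.0591, and 7 related genes. The count of 10 related genes became 2 with DESeq2, where 9 of the 10 kept an unadjusted p below 0.05, and 6 without a filter beyond 1 count, and lay between 3 and 10 when 1 library was omitted. With library size only, the median log2 fold change of all genes was -0.08, 733 genes rose and 2451 fell in place of 1334 and 1642, TUBA1A was called at -0.43 (adjusted p = 0.042), and TUBB6 reversed to -0.013. TUBB2A reversed to 0.025 with a GC trend removed, and lay between -0.088 and 0.027 when 1 library was omitted, reversed without the first CTRL library. TUBB2B lay between -0.49 and 0.31, reversed without the first OE-WT library and without the first CTRL library. The cause was not tested. Without 1 library an arm has a single library, which is assumed to vary like the other group. Over all genes DESeq2 called 1377 and the fits without the first OE-WT or the first CTRL library 1974 and 1923, against 2976. The summed alpha ratio ranged from 1.18 to 1.29 and the beta ratio from 1.07 to 1.20. TUBB2B and TUBB3 had 7 to 18 counts, which sets their precision; the part of reads set aside as ambiguous in these counts was not tested.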
